A study of Mus musculus with 29 samples.

Results

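The regions described here are ChIP-exo borders of the glucocorticoid receptor (GR) in mouse liver that lie away from every GR peak seen by ChIP-seq. A border is a listed 10 bp interval on 1 strand, read in ChIP-exo as a place where the exonuclease stopped at cross-linked protein. Whether each far border marks such a stop was not tested, since no input was analysed. A border was called far where its centre lay over 1000 bp from the centre of every peak in the 6 GR ChIP-seq lists, with the mitochondrial genome left out, and near otherwise. The members were thus chosen by the listed positions of borders and peaks alone. By this rule 25657 of 250558 nuclear borders were far, or 10.2%, and 224901 were near.

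The livers came from 12-week-old male mice back-crossed to BALB/c, either GRdim, which carry a receptor mutation known to impair GR dimerization, or their GR+/+ littermates (WT). They lived in a 12 h light cycle and were sampled at 6am, when the light phase began, at 6pm, when the dark phase began, or at 6am when pellets under the skin had released prednisolone, a synthetic glucocorticoid, at 12 mg/kg for 24 h. GR was precipitated with the antibodies PA1-511A and sc-1004 in both genotypes, and C/EBPβ was profiled by ChIP-seq in WT livers only, also at 6am, at 6pm and after treatment. Each of the 6 ChIP-exo lists and of the 9 ChIP-seq lists is 1 pool of 2 replicates, so a condition of a genotype is 1 measurement without a spread, and the 95% intervals below cover the counting of borders only. The liver was used whole, so the cell type behind a border is not known.

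GR is a ligand-activated nuclear receptor. It is known to bind palindromic elements as a pair of receptors, to bind other elements as a single receptor, and to reach further sites through other DNA-bound factors. In ChIP-exo each bound stretch is framed by a plus-strand border on its left and a minus-strand border on its right, so the spacing of opposite borders reports the footprint on DNA. C/EBPβ is a liver transcription factor of the bZIP class that is known to share many sites with GR.

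The rule kept 1378 of 13552 nuclear borders in GRdim at 6am, 2400 of 34812 in GRdim at 6pm and 3990 of 34348 in GRdim after prednisolone. In WT it kept 6759 of 65707 at 6am, 4568 of 53788 at 6pm and 6562 of 48351 after prednisolone. The far share was therefore 10.2%, 6.89% and 11.6% in the GRdim libraries and 10.3%, 8.49% and 13.6% in the WT libraries, with a mean of 10.2% ± 2.33 (SD over the 6 libraries). It was lowest at 6pm and highest after prednisolone in both genotypes. The libraries held about 31600000, 43800000 and 45200000 tags in GRdim and 55700000, 43100000 and 54700000 tags in WT, in the same order. The 6pm GR peak lists, where far shares were lowest, were the longest of their genotype, with 7440 peaks in GRdim and 14270 in WT. Since the rule itself sets the share, it was not tested, nor was the part of list length.

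Opposite far borders stood at 2 fixed spacings in WT livers after prednisolone. Of the 3317 far plus-strand borders of that library, 173 had a far minus-strand border 10 to 12 bp downstream and 170 had one 29 to 31 bp downstream, or 5.22% (4.51 to 6.03) and 5.13% (4.43 to 5.93). The most frequent distances were 12 and 30 bp. The mean number of pairs per 3 bp between 40 and 60 bp was taken as the background of the same library, here 54.0 pairs. Pairs in both windows exceeded it, 3.20 times (2.74 to 3.72) at 10 to 12 bp and 3.15 times (2.69 to 3.66) at 29 to 31 bp. Only 21 and 20 pairs had the minus-strand border 10 to 12 bp or 29 to 31 bp upstream of the plus-strand border. This orientation was not particular to these spacings, since the background of 54.0 pairs, counted downstream, also exceeded these numbers. Nor was it particular to this library. GRdim after prednisolone had 49 pairs downstream against 14 upstream at 10 to 12 bp, and 41 against 13 at 29 to 31 bp. In WT after prednisolone, a partner in both windows was found for 22 far plus-strand borders. Both spacings also stood above background among near borders of this library, 2.24 times at 10 to 12 bp and 1.51 times at 29 to 31 bp, where 12.2% and 8.27% of near plus-strand borders had such a partner. In the near lists of WT at 6am the ratios were 1.91 and 1.28, and in those of WT at 6pm 1.79 and 1.30.

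**Figure D1:**
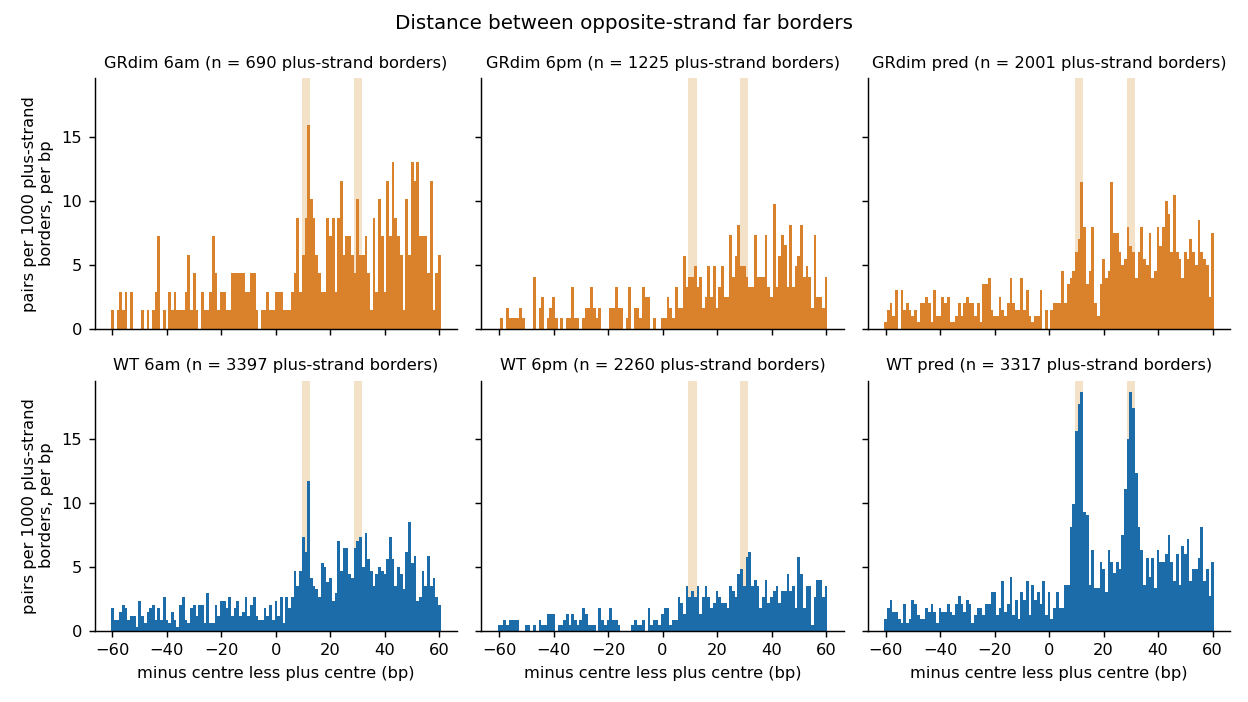
Pairs of opposite far borders per 1000 far plus-strand borders (vertical axis, per bp) by the distance from the plus-strand to the minus-strand centre in bp (horizontal axis), with 1 panel per pooled library and bands at 10 to 12 and 29 to 31 bp. Peaks in both bands stand out in WT after prednisolone, where 173 and 170 plus-strand borders have such a partner, and the GRdim prednisolone panel has 49 and 41.

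The same spacings were less frequent in the other 5 libraries. At 29 to 31 bp the share of far plus-strand borders with a partner was 2.03% in GRdim at 6am, 1.39% in GRdim at 6pm and 2.05% in GRdim after prednisolone, against 2.09% in WT at 6am, 1.42% in WT at 6pm and 5.13% in WT after prednisolone. After prednisolone, GRdim minus WT was -3.08 percentage points (-4.04 to -2.07). Prednisolone against 6am gave a difference of 0.02 points (-1.43 to 1.11) in GRdim and of 3.04 points (2.15 to 3.95) in WT. Off the Y chromosome the share at 6pm was 0.682% in GRdim and 0.995% in WT. Of the plus-strand Y borders at 6pm, 5.05% in GRdim and 7.33% in WT had such a partner. At 6am the off-Y shares were 2.04% in GRdim and 1.81% in WT, a difference of 0.229 points (-0.787 to 1.77), so the order turned. After prednisolone they were 1.98% and 5.02%. Each condition is 1 pool, so the difference between the prednisolone effects of the genotypes could not be tested against replicates. The WT libraries of prednisolone and 6am had close depth and 6562 and 6759 far borders, while the GRdim prednisolone library was shallower and had 3990.

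Over the 3 conditions the ranges of the genotypes overlapped at both longer spacings. The share at 29 to 31 bp averaged 1.82% ± 0.376 in GRdim and 2.88% ± 1.98 in WT (SD, n = 3 each; exact permutation test, two-sided, p = 0.4). The share at 24 to 26 bp averaged 1.98% ± 0.547 in GRdim and 1.36% ± 0.474 in WT (SD, n = 3 each; exact permutation test, two-sided, p = 0.3). Condition by condition, GRdim was above WT at 24 to 26 bp in 3 of 3 conditions, with 2.46% against 1.77% at 6am, 1.39% against 0.841% at 6pm and 2.10% against 1.48% after prednisolone. Off Y the 6pm values were 0.584% in GRdim and 0.664% in WT, so the order held in 2 of 3. Far pairs at 24 to 26 bp were 1.07, 0.960 and 1.07 times their background in GRdim and 1.28, 0.881 and 0.907 times in WT. Each interval included 1, although off Y that of WT at 6am did not (1.44 times, 1.06 to 1.90). That background was higher in GRdim in each condition, with 23.0, 14.5 and 19.7 pairs per 1000 plus-strand borders against 13.8, 9.54 and 16.3. The part of pair density in the order of the genotypes was not tested. Pairing the genotypes by condition gave p = 0.25 at both spacings in an exact two-sided sign-flip permutation test, the smallest that 3 pairs allow. Adjusted over the 5 tests made, the unpaired p-values were both 0.5, and the smallest p that 3 libraries against 3 allow is 0.1. The WT mean at 29 to 31 bp rests on 1 library: without WT prednisolone the difference GRdim minus WT turned to 0.0689 points, against -1.06 points with it.

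Relative to its own background, WT at 6am also had more far pairs at 10 to 12 bp, 1.84 times (1.47 to 2.27), and at 29 to 31 bp, 1.52 times (1.18 to 1.91). In WT at 6pm the ratio was 0.881 (0.530 to 1.38) at 10 to 12 bp and 1.48 (1.01 to 2.09) at 29 to 31 bp. For GRdim after prednisolone the ratios were 1.24 (0.919 to 1.64) and 1.04 (0.746 to 1.41), and intervals of the other GRdim libraries also included 1. Borders on the Y chromosome change part of this. Without them the ratio at 29 to 31 bp was 1.36 (0.843 to 2.08) in WT at 6pm, that at 10 to 12 bp was 1.55 (1.12 to 2.09) in GRdim after prednisolone and 1.66 (1.00 to 2.60) in GRdim at 6am, and both ratios were 4.28 (3.62 to 5.02) in WT after prednisolone.

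The spaced borders of WT prednisolone livers had more tags than the rest. Their median was 16 tags in both windows, against 10 tags for all far borders of the library. Pairs at 24 to 26 bp, which did not exceed their background (0.907 times), had a median of 13 tags. Like all far borders of the library, of which 28.8% lay in C/EBPβ peaks, the spaced ones were mostly outside such peaks. Among far plus-strand borders with at least 20 tags, 60 of 316 (19.0%) had a partner at 10 to 12 bp and 53 (16.8%) at 29 to 31 bp. Among those with fewer tags it was 113 (3.77%) and 117 (3.90%) of 3001. A partner at 29 to 31 bp was found for 3.43% (32 of 933) of far plus-strand borders inside C/EBPβ peaks and for 5.79% (138 of 2384) outside them. By distance, 5.51% of those over 10 kb from the nearest GR peak had such a partner and 4.29% of those closer by.

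Pairs listed whole in another library were few, although their single borders were listed elsewhere about as often as other far borders or more often. Of the 170 pairs at 29 to 31 bp in WT after prednisolone, both borders were listed within 5 bp in 9 cases in GRdim after prednisolone, in 14 cases in WT at 6am and in 0 cases in WT at 6pm. At least 1 of the borders was listed in 29, 57 and 26 cases in the same libraries. Counted singly, 11.2% (8.25 to 15.0) of these borders were listed in GRdim after prednisolone and 20.9% (16.9 to 25.5) in WT at 6am. Far borders of WT prednisolone livers in none of the 3 spacing windows were listed there in 8.65% (7.96 to 9.40) and 11% (10.2 to 11.8) of cases. Joined over all libraries on the numbered chromosomes and X, 351 pairs of places had a spacing of 29 to 31 bp, of which 193 had both borders together in at least 1 WT library and in no GRdim library, and 31 the reverse. For 118 pairs no library listed both borders. The GRdim lists hold 7768 far borders and the WT lists 17889, and the part of list length in these counts was not tested.

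The pair at 29 to 31 bp listed on both strands in most libraries lay on mm9 chromosome 12, with its plus-strand border at 70755170 to 70755180 and its minus-strand border at 70755200 to 70755211. The plus-strand border had 9, 25 and 24 tags in GRdim at 6am, 6pm and after prednisolone, against 30, 21 and 31 tags in WT. The minus-strand border had 9, 21 and 18 tags in GRdim, and in WT it had 33 tags at 6am and 35 after prednisolone and was not listed at 6pm. Both strands were thus seen in 5 of 6 libraries, with the lowest counts in GRdim at 6am. The nearest GR peak centre was 29593 bp away and 1 of the 3 C/EBPβ lists had a peak there. A second such pair lay just to its left, at 70755101 to 70755110 and 70755132 to 70755143, and was listed on both strands in 4 libraries.

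The positions given for pairs are the spans of places joined over libraries, so their middles need not give the spacing. Another pair of this spacing (30.5 bp) lay on chromosome 16, at 18248836 to 18248846 and 18248861 to 18248878. It was 91312 bp from any GR peak and in no C/EBPβ peak. Its plus-strand border had 28 tags at 6am and 20 after prednisolone in GRdim, against 19 and 32 in WT, and was listed in neither genotype at 6pm. Its minus-strand border had 26 and 24 tags in GRdim under the same conditions, against 19 and 35 in WT, and 12 tags in GRdim at 6pm. The pair was thus present in both genotypes at 6am and after prednisolone.

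At 24 to 26 bp, 225 pairs of places were found, 79 with both borders together in WT libraries only and 40 in GRdim libraries only. For 97 pairs no library listed both borders. The WT lists hold 17889 far borders and the GRdim lists 7768, and the part of list length in these counts was not tested. The leading pairs, with spacings of 24.5 and 24 bp, lay on chromosome 19, at 39984694 to 39984705 with 39984719 to 39984730, and at 39986916 to 39986927 with 39986938 to 39986952. They were 13533 and 11311 bp from a GR peak, in no C/EBPβ peak, and listed on both strands in 3 libraries each. The next, on chromosome 12 at 105062230 to 105062241 with 105062253 to 105062269, lay in peaks of all 3 C/EBPβ lists and was also listed on both strands in 3 libraries. Its plus-strand border had 10 and 15 tags in GRdim at 6pm and after prednisolone, against 19 tags in WT after prednisolone.

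At the shorter spacing of 10 to 12 bp, a window for which examples were chosen after their values were seen, the leading pair lay on chromosome 1 at 93146802 to 93146813 and 93146815 to 93146826, 51467 bp from a GR peak. Its plus-strand border had 40, 25 and 54 tags in GRdim at 6am, 6pm and after prednisolone, against 42 tags at 6am and 71 after prednisolone in WT, where it was not listed at 6pm. RPM is the authors' count scaled to library size. For the plus-strand border it was highest in WT after prednisolone (1.30), close to 1.26 in GRdim at 6am and 1.20 in GRdim after prednisolone. The minus-strand border had 0.885, 0.571 and 0.354 RPM in GRdim at 6am, 6pm and after prednisolone. In WT it had 0.287 RPM at 6am and 0.713 after prednisolone, and was not listed at 6pm. The pair lay in a peak of 1 of the 3 C/EBPβ lists. The pairs that followed lay on chromosome 9, with borders at 65972611 to 65972623 and 65972622 to 65972634, within peaks of all 3 C/EBPβ lists, and on chromosome 15, with borders at 43114273 to 43114291 and 43114286 to 43114301, in no such peak. Each was listed on both strands in 4 libraries.

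Taken over the whole range of 10 to 35 bp, far borders had an opposite border less often than near ones. In GRdim 16.2%, 10.0% and 14.4% of far plus-strand borders at 6am, 6pm and after prednisolone had one, against 30.6%, 36.7% and 38.4% of near ones. In WT it was 12.8%, 7.88% and 19.6% of far ones, against 47.8%, 41.2% and 43.7% of near ones. The share was lower among far borders in 6 of 6 libraries, with a mean difference of -26.3 percentage points. An exact two-sided sign-flip permutation test over the 6 libraries gave p = 0.03125, the smallest it can give, and 0.0781 after Benjamini-Hochberg adjustment over the 5 tests, so the difference did not pass the correction. Counting only the opposite border with the most tags within 100 bp, the difference was -9.21 points, again lower among far borders. Near borders stand more densely, and the part of density in the difference was not tested further.

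Far borders lay in C/EBPβ peaks less often than near ones in each of the 6 libraries. A border was counted where it overlapped a peak of any of the 3 WT C/EBPβ lists by at least 1 bp. In GRdim 353 of 1378 far borders at 6am (25.6%), 785 of 2400 at 6pm (32.7%) and 1434 of 3990 after prednisolone (35.9%) lay in such a peak. In WT it was 1860 of 6759 at 6am (27.5%), 1556 of 4568 at 6pm (34.1%) and 1890 of 6562 after prednisolone (28.8%). The near shares were 80.5%, 80.1% and 79.5% in GRdim and 73.0%, 76.1% and 71.1% in WT. Far shares averaged 30.8% ± 4.06 and near shares 76.7% ± 4.00 (SD, n = 6 libraries each), without overlap. The difference of -45.9 points had the same sign in 6 of 6 libraries, with p = 0.03125 in the exact two-sided sign-flip permutation test, the smallest it can give, and 0.0781 adjusted over the 5 tests. All 6 libraries were split by the same GR lists and scored on the same 3 C/EBPβ lists, so their signs are not independent. Near borders lie by rule close to GR peaks, where C/EBPβ is known to share sites, so the test cannot separate the direction from this choice. At 900 to 1000 bp from a GR peak centre, the share of near borders was 18.2% to 25.9%. For scale, the C/EBPβ peaks cover 0.259% of the span over which borders were listed.

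**Figure D2:**
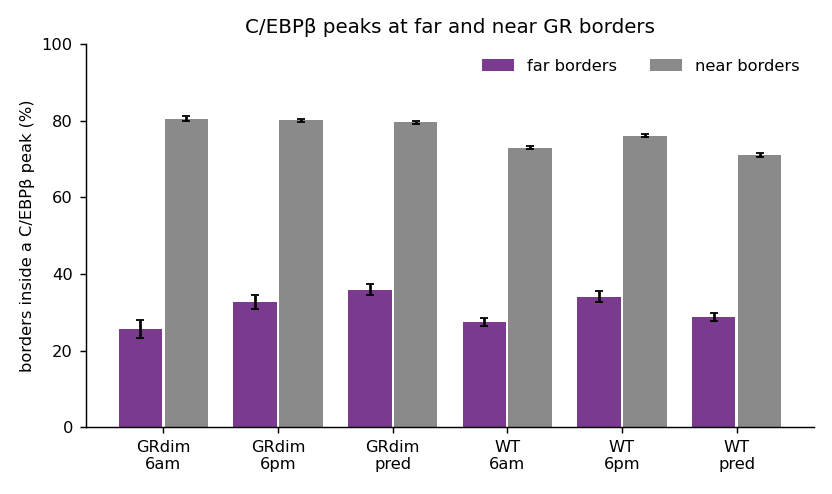
Share of far and near borders that lie inside a WT C/EBPβ peak (vertical axis, %) in each pooled library, with 95% Wilson intervals for the counting of borders. Far shares sit between 25.6% and 35.9%, all below the near shares of 71.1% to 80.5%.

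The far share in C/EBPβ peaks moved with condition. It was higher at 6pm than at 6am by 7.09 points (4.09 to 10.0) in GRdim and by 6.54 points (4.81 to 8.29) in WT. After prednisolone it was above 6am by 10.3 points (7.53 to 13.0) in GRdim and by 1.28 points (-0.244 to 2.81) in WT. Between genotypes the difference GRdim minus WT was 7.14 points (5.29 to 8.99) after prednisolone, -1.90 (-4.38 to 0.691) at 6am and -1.36 (-3.67 to 0.985) at 6pm. No Y border lay in a C/EBPβ peak, and off Y these differences were 8.47 (6.47 to 10.5), 0.404 (-2.40 to 3.32) and 3.49 (0.905 to 6.09) points, so those of 6am and 6pm turned positive. Prednisolone against 6am in WT was 2.14 points (0.501 to 3.78) off Y. Among far borders with at least 20 tags the share was lower, between 11% and 27.0%, and the mean difference from near borders was -64.1 points.

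The far borders of WT prednisolone livers lay more often in the C/EBPβ list of prednisolone than in that of 6am. Of the far borders of WT prednisolone livers, 23.8% lay in the C/EBPβ list of prednisolone and 18.4% in that of 6am. For WT 6am livers it was 15.1% in the prednisolone list and 19.7% in the 6am list. Thus 511 far borders of WT prednisolone livers lay in a C/EBPβ peak listed after prednisolone and not at 6am, against 159 in one listed at 6am and not after prednisolone. In the WT 6am library these numbers were 139 and 450. GRdim borders, set against the same WT lists, followed the same order, with 262 and 197 after prednisolone and 32 and 72 at 6am. The C/EBPβ list of 6pm, the longest with 26226 peaks, held the largest share of far borders in every library other than WT prednisolone.

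Within C/EBPβ peaks the far borders framed the peak centre by strand. Plus-strand borders lay left of the centre in 61.6%, 70.3% and 66.4% of cases in GRdim at 6am, 6pm and after prednisolone, and in 61.3%, 63.6% and 65.7% in WT. Minus-strand borders lay right of it in 72.7%, 74.0% and 67.2% in GRdim and in 64.8%, 66.8% and 69.1% in WT. The median offset was between -17.0 and -9.50 bp for the plus strand and between 14.5 and 21.0 bp for the minus strand over the 6 libraries. Between 70.3% and 75.8% of these borders lay within 50 bp of a C/EBPβ centre. This layout was seen in both genotypes and all 3 conditions, at borders without a GR peak centre within 1000 bp.

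**Figure D3:**
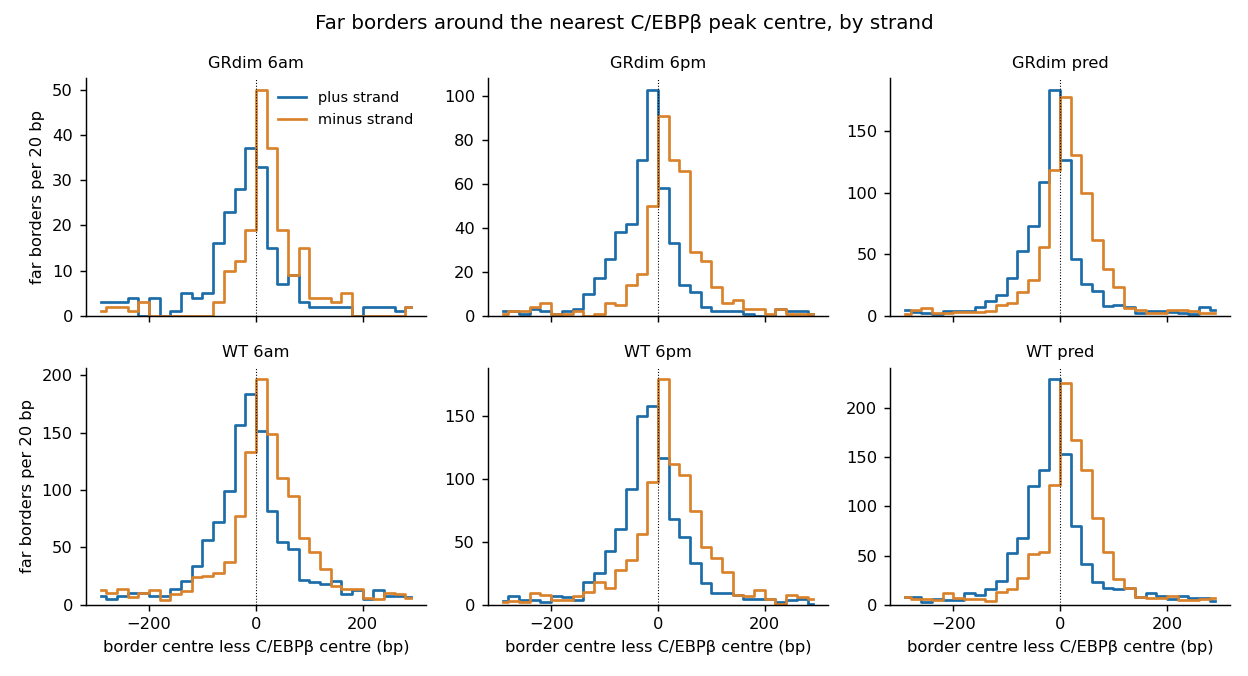
Number of far borders per 20 bp (vertical axis, scaled per panel) by the offset of the border from the nearest C/EBPβ peak centre in bp (horizontal axis), for the plus and the minus strand in each pooled library. Plus-strand borders collect left of the centre and minus-strand borders right of it in each of the 6 panels.

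Seen from C/EBPβ, 10142, 12630 and 11699 peaks of the 6am, 6pm and prednisolone lists were over 1000 bp from every GR peak. Of these, 26.4% (25.5 to 27.2), 27.1% (26.3 to 27.9) and 22.6% (21.9 to 23.4) held a far border of at least 1 library. A far border of the WT library of the same condition was found at 9.94%, 9.16% and 9.85% of them. The C/EBPβ peaks that held a far border had a median authors' score of 3.5, 3.42 and 3.77, against 2.97, 2.97 and 3.05 for those that held none.

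Most far borders were listed in 1 library. A far border was called recurrent where another library had a far border of the same strand with its centre within 5 bp. In GRdim 57.4%, 38.2% and 32.2% of far borders were recurrent at 6am, 6pm and after prednisolone, against 79.2%, 63.8% and 64.7% of near borders. In WT it was 24.0%, 20.4% and 22.6% of far borders, against 55.4%, 56.6% and 56.8% of near borders. Recurrence was lower among far borders in every library. Near borders stand more densely and had higher median tags, and the part of either in this difference was not tested. Among far borders, recurrence was highest in GRdim at 6am, the shortest far list. Among the WT libraries it was lowest at 6pm, also the shortest far list, and the part of list length was not tested. Between single libraries, 30.7% of the far borders of GRdim at 6am were also listed as far in GRdim after prednisolone, 14.9% of those of GRdim after prednisolone in WT after prednisolone, and 12.1% of those of WT after prednisolone in WT at 6am. Being missing from a list does not show that a border is absent, since weaker ones are not listed.

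Far borders that chain within 5 bp on 1 strand were joined into 21321 places, no wider than 32 bp. Of these, 18632 (87.4%) were listed in 1 library, 1780 in 2, 507 in 3, 223 in 4, 115 in 5 and 64 in all 6. The median RPM was 0.197 for places in 1 library and 0.521 for places in all 6. Off the Y chromosome, C/EBPβ peaks held 34.5% (33.8 to 35.2) of the places in 1 library, 35% (32.6 to 37.4) of those in 2 and 35% of those in 3. For places in 4 it was 27.9% (21.1 to 36.0) and for places in 5 it was 31.1% (20.9 to 43.6). For places in all 6 it was 4 of 51, or 7.84% (3.09 to 18.5). Of the same 51 places, 49.0% were over 100 kb from any GR peak, against 21.7% of the places in 1 library. The places listed throughout thus had a higher median RPM, were farther from GR peaks and lay less often in C/EBPβ peaks. Such a place has to be strong enough for listing in every library, so its higher RPM follows at least in part from the choice. Far borders with at least 20 tags also had a lower C/EBPβ share, between 11% and 27.0%. The part of border strength in the C/EBPβ share of these places was not tested.

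**Figure D4:**
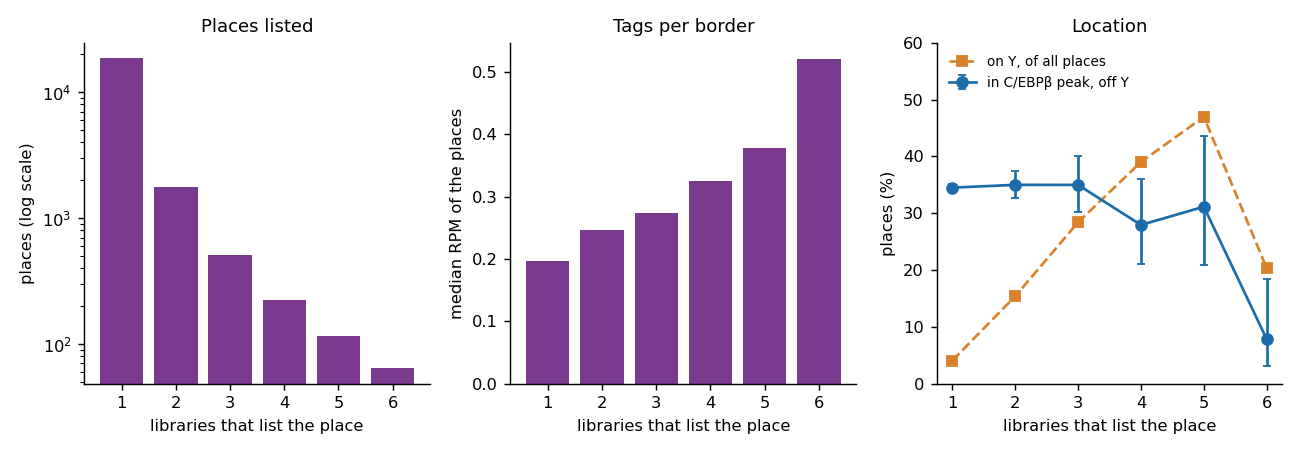
Places of far borders by the number of libraries that list them (horizontal axes): the number of places on a log scale, their median RPM, and the share in a C/EBPβ peak off the Y chromosome with 95% Wilson intervals beside the share on Y, both in %. Median RPM climbs from 0.197 to 0.521 along the axis, and the C/EBPβ share is 7.84% for places in all 6 libraries.

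The strongest place in all 6 libraries was a minus-strand border on mm9 chromosome 5 at 144992658 to 144992667. It had 55, 44 and 91 tags in GRdim at 6am, 6pm and after prednisolone, against 128, 54 and 127 tags in WT, or 1.74, 1.00 and 2.02 RPM in GRdim and 2.30, 1.25 and 2.32 RPM in WT. In both genotypes it was lowest at 6pm. It lay 3084 bp from a GR peak and 1002 bp from a C/EBPβ centre. The next was a minus-strand border on chromosome 11 at 107060779 to 107060788, with 41, 86 and 81 tags in GRdim and 99, 68 and 105 tags in WT. It lay 27182 bp from a GR peak, and by RPM it was lowest in GRdim at 6am (1.30) and highest in GRdim at 6pm (1.96). The third was a plus-strand border on chromosome 1 at 124253765 to 124253775, 1006360 bp from a GR peak, with 54, 53 and 97 tags in GRdim and 114, 43 and 94 tags in WT. None of the 3 lay in a C/EBPβ peak, and they are also the leading places in all 6 libraries outside C/EBPβ peaks.

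Only 2 places in all 6 libraries lay in peaks of all 3 C/EBPβ lists, and both were weaker. The plus-strand border on chromosome 18 at 56633338 to 56633349 had 20, 28 and 26 tags in GRdim and 25, 17 and 21 tags in WT, and lay 21276 bp from a GR peak. The plus-strand border on chromosome 16 at 8407050 to 8407061 had 26, 17 and 32 tags in GRdim and 30, 17 and 19 tags in WT, and lay 159670 bp from a GR peak.

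Of the 53 places listed in the 3 WT libraries and no GRdim library, 1 stood out. The plus-strand border on chromosome 13 at 68506650 to 68506659 had 186, 211 and 174 tags in WT at 6am, 6pm and after prednisolone, or 3.34, 4.89 and 3.18 RPM, and was not listed in any GRdim library. It was the strongest far border in each WT library, 210350 bp from a GR peak and 184723 bp from a C/EBPβ centre. The next, a plus-strand border on chromosome 15 at 81790735 to 81790745, had 34, 25 and 20 tags in WT. After it came a minus-strand border on chromosome 3 at 95479564 to 95479574, with 19, 34 and 30 tags in WT, only 1173 bp from a GR peak. Of the 21321 places of all libraries, 17 were listed in the 3 GRdim libraries and no WT library, against these 53. The GRdim lists hold 7768 far borders and the WT lists 17889, and the part of list length in these counts was not tested. The GRdim ones were led by a plus-strand border on chromosome 1 at 45702322 to 45702335 with 13, 29 and 20 tags. A minus-strand border on chromosome 10 at 4522028 to 4522037 followed with 15, 15 and 18 tags. The third was a plus-strand border on chromosome 18 at 65409916 to 65409933, with 14, 11 and 16 tags. The choice of these classes fixes the genotype difference, so it is a description.

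Some places were listed in both genotypes under 1 condition and in no other library: 93 at 6am, 74 at 6pm and 175 after prednisolone. That was 6.82%, 3.10% and 4.40% of the places of the GRdim libraries and 1.38%, 1.63% and 2.67% of those of the WT libraries, so the order of the conditions depends on the list they are set against. Off Y, 65 of 138 (47.1%, 39.0 to 55.4) of the prednisolone places lay in C/EBPβ peaks, against 23 of 84 (27.4%, 19.0 to 37.7) of the 6am places. The share for 6pm was 31.3% (21.5 to 43.2). Places listed in GRdim prednisolone alone lay in C/EBPβ peaks in 41.4% of cases off Y, within the interval of the shared ones, and places in WT prednisolone alone in 32.1%. The strongest prednisolone place was a minus-strand border on chromosome 6 at 112448912 to 112448922, with 25 tags in each genotype, in peaks of all 3 C/EBPβ lists and 384999 bp from a GR peak. The next had 22 tags in GRdim and 27 in WT, on chromosome 15 at 72399157 to 72399168. The third had 17 tags in GRdim and 24 in WT, on chromosome 10 at 82418063 to 82418072, and neither lay in a C/EBPβ peak. The strongest 6pm place, on chromosome 19 at 29760436 to 29760449, had 9 tags in GRdim and 30 in WT. The other 2 were opposite borders side by side on chromosome 7, the plus-strand one at 134791294 to 134791303 with 18 tags in GRdim and 21 in WT, and the minus-strand one at 134791310 to 134791319 with 16 and 19.

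The RPM of a place listed in 2 libraries differed most between the genotypes at 6am. The median log2 ratio of GRdim over WT was 0.48 over 441 places at 6am (quartiles 0.01 and 0.81), -0.02 over 318 places at 6pm and 0.17 over 624 places after prednisolone (-0.19 and 0.54). The median log2 ratio of prednisolone over 6am was 0.03 over 832 places in WT (quartiles -0.27 and 0.44) and -0.25 over 444 places in GRdim (-0.59 and 0.16). That of 6pm over 6am was 0.25 over 496 places in WT (-0.24 and 0.76) and -0.27 over 281 in GRdim (-0.61 and 0.11). A place has to be listed in both libraries to enter, and the lowest RPM that can be listed is higher in a shallower library.

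A few dense stretches, chiefly on the Y chromosome, held 2714 far borders, or 10.6%. The GR lists hold no peak on Y, so every Y border counts as far: 2487 borders, or 9.69% of all far ones. They numbered 207, 426 and 436 in GRdim at 6am, 6pm and after prednisolone, against 505, 279 and 634 in WT. That was 15.0%, 17.8% and 10.9% of far borders in GRdim and 7.47%, 6.11% and 9.66% in WT. In 8 stretches of 10 kb between 2770001 and 2900000 on mm9 chromosome Y lay 2243 of them, or 90.2%, with 0 in a C/EBPβ peak. Y borders had median counts of 11 to 14 tags against 9 or 10 elsewhere, and 61.8% to 88.4% were recurrent, against 16.5% to 51.9% off Y. The densest stretch, from 2780001 to 2790000, held 94, 125 and 139 far borders in GRdim and 142, 105 and 189 in WT. Without mm9 sequence, reads or input, whether the Y borders reflect bound protein could not be tested.

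**Figure D5:**
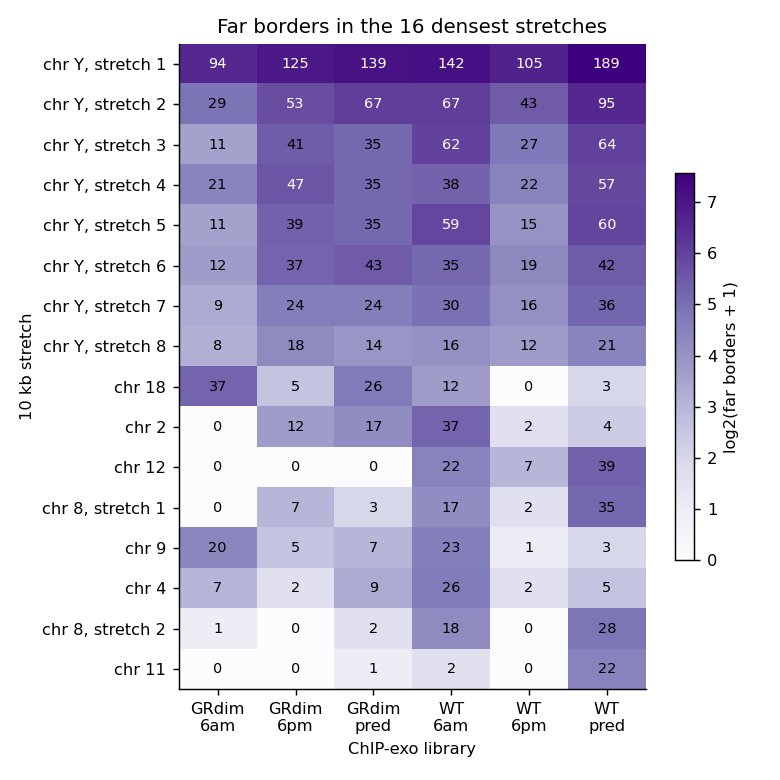
Number of far borders in each of the 16 stretches of 10 kb (rows, ordered by their total) with more than 20 far borders in at least 1 library, for the 6 pooled libraries (columns), with color for log2 of the number plus 1. The 8 stretches on Y are filled in every library, while the chromosome 12 stretch holds 0 in each GRdim library and 22, 7 and 39 in WT.

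Outside Y, 8 stretches of 10 kb held more than 20 far borders in at least 1 library, 471 in all. A stretch with many borders in 1 library passes this limit whatever the others hold, so unequal counts follow from the choice and are given as a description. On chromosome 12, from 105320001 to 105330000, 0 far borders were listed in each GRdim library, against 22, 7 and 39 in WT at 6am, 6pm and after prednisolone. The stretch on chromosome 8 from 112510001 to 112520000 had 0, 7 and 3 in GRdim and 17, 2 and 35 in WT. It also held near borders, 0, 3 and 4 in GRdim and 17, 12 and 39 in WT. Its neighbour from 112520001 to 112530000 had 1, 0 and 2 in GRdim and 18, 0 and 28 in WT. On chromosome 11, from 86390001 to 86400000, the counts were 0, 0 and 1 in GRdim and 2, 0 and 22 in WT. Near borders there numbered 5, 5 and 1 in GRdim and 12, 5 and 10 in WT. These 4 stretches had their highest count of far borders in WT after prednisolone.

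The other 4 stretches had it elsewhere. Chromosome 18, from 65400001 to 65410000, held 37, 5 and 26 far borders in GRdim at 6am, 6pm and after prednisolone, against 12, 0 and 3 in WT, although the GRdim 6am library is the shallowest. Chromosome 9, from 46080001 to 46090000, held 20, 5 and 7 in GRdim and 23, 1 and 3 in WT. On chromosome 2, from 172980001 to 172990000, 0, 12 and 17 were listed in GRdim and 37, 2 and 4 in WT. On chromosome 4, from 150220001 to 150230000, it was 7, 2 and 9 in GRdim and 26, 2 and 5 in WT. The last 2 of these stretches reach to within 1001 and 1002 bp of a GR peak, and their far borders lay in no C/EBPβ peak. Both also held near borders, so the limit of 1000 bp splits them. On chromosome 2 these numbered 1, 18 and 14 in GRdim and 26, 3 and 6 in WT. On chromosome 4 they numbered 8, 20 and 17 in GRdim and 38, 24 and 20 in WT.

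Far borders were weak and even between strands. The median was 10 tags in each of the 6 libraries, a count with an exact Poisson 95% interval of 4.80 to 18.4 tags, so single far borders are imprecise. The near medians were 11, 12 and 12 tags in GRdim and 13, 19 and 15 in WT. At least 20 tags were reached by 7.04%, 5.29% and 5.31% of far borders in GRdim and by 5.36%, 4.38% and 9.33% in WT, against 9.73%, 13.7% and 10.5% of near borders in GRdim and 22.8%, 47.4% and 33.8% in WT. Counts decide whether a border is listed, so this difference was not tested. The strongest far border in GRdim at 6am and after prednisolone was 1 minus-strand position on chromosome 9, with its first base at 110183844 and 110183843, and had 71 and 130 tags there. In GRdim at 6pm it was the chromosome 11 border described above.

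The plus strand held 50.1%, 51.0% and 50.2% of far borders in GRdim at 6am, 6pm and after prednisolone, and 50.3%, 49.5% and 50.5% in WT. Over the libraries the far mean was 50.3% ± 0.521 and the near mean 50.2% ± 0.229 (SD, n = 6 libraries each), a difference of 0.0574 points (exact two-sided sign-flip permutation test, p = 0.875, also after adjustment). Among borders with at least 20 tags the far share on the plus strand was 55.7%, 57.5% and 53.3% in GRdim and 52.8%, 58.0% and 51.6% in WT. It was above the near share in 6 of 6 libraries, by 5 points on average, with an exact two-sided p of 0.03125, not adjusted for the alternatives tried. It rests on 97 to 612 far borders per library, and each library's interval other than that of WT at 6pm (51.1% to 64.6%) included 50%.

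By distance, 6.31% to 10.8% of far borders lay 1000 to 2000 bp from the nearest GR peak centre and 18.8% to 23.8% over 100 kb from it. The C/EBPβ share was 27.2% to 39.1% in the first class, 32.4% to 50.5% at 5000 to 10000 bp and 23.7% to 37.3% over 100 kb. Just inside the limit, at 1000 to 1100 bp, there were 13 to 104 borders per library, with a median of 10 tags in each and a C/EBPβ share of 15.4% to 50.7%. Just outside it, at 900 to 1000 bp, there were 11 to 97 borders, with medians of 8 to 10 tags and a C/EBPβ share of 18.2% to 25.9%.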

How the data were processed

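GR ChIP-exo and GR and C/EBPβ ChIP-seq lists were analysed as deposited by the authors. Per the submitters' processing notes, Bowtie, HOMER and mm9 were used, with roles and versions not given in the sources used here. The 2 RNA polymerase II and 12 input samples were not analysed here. RPM is the count per library size. Per the file headers, each ChIP-exo border of 10 bp has a strand, a count of tags and an RPM value; the count divided by the RPM gave the size of the library. The deposited height signal, a standard deviation score and another number of unstated meaning per border were not used. The ChIP-seq files hold peaks of 200 bp with the authors' score in a unit not stated; it describes peaks within a list only.

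Distances are between centres, in mm9, with positions counted from 1. No mm9 sequence or annotation was used, so positions have no gene name, no sequence and no exon or intron. Shares have Wilson and differences Newcombe 95% intervals, pair ratios exact Poisson intervals against a background taken as fixed; all cover counting error only. Borders are not replicates, so tests are exact permutations over libraries, with Benjamini-Hochberg adjustment over 5 tests. Dense stretches are bins of 10 kb with more than 20 far borders in 1 library.

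The members, lists, measures and windows were chosen with earlier results of these data known. Named places are the 3 with the highest median RPM per class of libraries on numbered chromosomes and X, the pairs of places at 29 to 31 and 24 to 26 bp listed on both strands in most libraries, and the border with the most tags in each library. Code was tested on simulated data: 30% simulated spacing, overlap and recurrence among 4000 borders were found again as 30%. The software was matplotlib 3.10.9, scipy 1.17.1, pandas 2.3.3 and numpy 2.4.6 under Python 3.11.15.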

Additional observations from a re-analysis of the deposited data

Results flagged for a closer look

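The share of far borders on the Y chromosome moved in opposite directions in the genotypes. At 6pm against 6am it differed by 2.73 percentage points (0.255 to 5.11) in GRdim and by -1.36 points (-2.29 to -0.415) in WT. After prednisolone against 6am it differed by -4.09 points (-6.29 to -2.04) in GRdim and by 2.19 points (1.24 to 3.14) in WT. The intervals cover the counting of borders only, each value compares 1 pool with 1 pool, and the difference between the genotypes was not tested. The share does not show the level: Y borders at 6am, 6pm and after prednisolone numbered 207, 426 and 436 in GRdim and 505, 279 and 634 in WT. Their summed RPM, which is scaled to library size, was 78.1, 127.9 and 130.4 in GRdim and 141.0, 77.2 and 170.1 in WT. After prednisolone the number and the summed RPM were thus above 6am in both genotypes, while at 6pm they were above 6am in GRdim and below it in WT.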

How the results depend on the processing

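Each list is 1 pool, and counts near the far median of 10 tags are imprecise. No paired analysis was possible because every list pools its replicates, so replicate numbers cannot be matched; pairing the genotypes by condition, added after seeing the data, left the differences at 24 to 26 and 29 to 31 bp past no threshold. With far set at over 500, 2000 or 5000 bp, without Y or without dense stretches, the C/EBPβ and the opposite-border differences kept their sign and the exact permutation p = 0.03125. With at least 20 tags, 4.04% of borders were far in place of 10.2%, recurrence was 58.8% in place of 32.4%, the plus-strand difference was 5 points and the GRdim minus WT difference at 24 to 26 bp was -0.0408 points. Against the GR list of the same genotype and condition alone, 26% of borders were far. Recurrence was 9.67% at identical centres and 50.6% within 50 bp. With far set at over 2000 bp the plus-strand difference was -0.128 points. Without WT prednisolone, the GRdim minus WT difference at 29 to 31 bp was 0.0689 points. Leaving out 1 library at a time, which was added in the same way as was the preceding alternative, the C/EBPβ difference ranged from -46.7 to -44.1 points, the opposite-border difference from -28.6 to -24.5 and the plus-strand difference from -0.135 to 0.175. With 5 libraries the smallest p is 0.0625, so the first 2 could no longer pass 0.05 by construction. For the other changes the cause was not tested.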
